A study of Mus musculus with 6 samples.

Results

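Complement, coagulation and fibrinolysis are cascades of plasma proteins, most of which are made and secreted by hepatocytes. The 45 genes examined encode these proteins and a few of their regulators and receptors. They were picked by name, and all 45 were found among the 24346 genes of the expression table.

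Transcript levels were measured by RNA-seq of whole liver from male C57/BL6 mice, 8 weeks old, killed 24 h after an intraperitoneal dose of CCl4 (0.6 μl per g body weight, diluted in sunflower oil). CCl4 is a hepatotoxin that kills hepatocytes around the central veins, so every library came from a CCl4-treated liver and no untreated liver was compared. The extent of injury is not given for each of these livers, and its part in the differences below cannot be told apart from that of the genotype. The 3 control libraries are labelled wild type and correspond to med23-floxed (med23f/f) mice. The 3 others are labelled Med23 knockout and correspond to med23Δli mice, in which the floxed gene is deleted by a Cre driven by the albumin promoter, so that hepatocytes lose *Med23* while endothelial cells, Kupffer cells, stellate cells and leukocytes keep it. *Med23* encodes a subunit of Mediator, the complex that links transcription factors to RNA polymerase II. Replicate numbers are all that the labels say of the samples within a group, so the p-values measure the spread between these samples. The question was how the loss of MED23 in hepatocytes alters the transcripts of the clotting and complement proteins in the injured liver.

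Complement is triggered by the C1 complex, by mannose-binding lectins or by the alternative pathway with factor B and properdin. All routes cleave C3, and the terminal components then assemble into a pore in the target membrane. Coagulation runs from tissue factor with factor VII, or from the contact system of factor XII, prekallikrein and high molecular weight kininogen, to thrombin, which turns fibrinogen into fibrin, and plasmin later dissolves the fibrin. The liver is the main source of these proteins, although tissue factor, tissue factor pathway inhibitor, factor VIII, properdin and the plasminogen activators are made also, and some of them largely, by endothelial cells, leukocytes or other cells.

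The promoters of 4 genes are shown because these genes form 2 neighbouring pairs that carry the largest rise and the largest fall among the 45 genes. *Klkb1* and *F11* lie 4.7 kb apart on chromosome 8 and encode plasma prekallikrein and factor XI, and *C8a* and *C8b* lie 11.1 kb apart on chromosome 4 and encode the alpha and beta chains of complement C8. The 250 bases upstream of each RefSeq transcription start (GRCm38.p6) are given 5′ to 3′ on the strand of the gene. Capitals mark every match, on either strand, to TTCNNNGAA (a STAT motif), TTGCNNAA (C/EBP), GTTAAT (the HNF1 core), AGGTCA (the nuclear receptor core) or CAAAGTCCA (HNF4).
Klkb1, chr8:45294836-45295085, minus strand: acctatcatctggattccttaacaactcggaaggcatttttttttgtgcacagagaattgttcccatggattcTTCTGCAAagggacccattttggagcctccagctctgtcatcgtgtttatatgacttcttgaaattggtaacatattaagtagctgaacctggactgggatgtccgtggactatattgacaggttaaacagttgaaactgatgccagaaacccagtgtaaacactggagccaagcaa
F11, chr8:45262032-45262281, minus strand: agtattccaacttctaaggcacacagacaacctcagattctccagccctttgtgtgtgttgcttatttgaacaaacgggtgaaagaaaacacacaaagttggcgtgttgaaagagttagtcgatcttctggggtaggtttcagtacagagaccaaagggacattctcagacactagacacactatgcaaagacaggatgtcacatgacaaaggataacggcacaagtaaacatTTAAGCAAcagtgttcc
C8a, chr4:104876399-104876648, minus strand: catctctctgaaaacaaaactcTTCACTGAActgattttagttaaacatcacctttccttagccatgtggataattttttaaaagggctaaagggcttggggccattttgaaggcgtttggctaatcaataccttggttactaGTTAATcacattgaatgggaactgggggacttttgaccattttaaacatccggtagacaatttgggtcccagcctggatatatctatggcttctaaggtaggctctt
C8b, chr4:104766067-104766316, plus strand: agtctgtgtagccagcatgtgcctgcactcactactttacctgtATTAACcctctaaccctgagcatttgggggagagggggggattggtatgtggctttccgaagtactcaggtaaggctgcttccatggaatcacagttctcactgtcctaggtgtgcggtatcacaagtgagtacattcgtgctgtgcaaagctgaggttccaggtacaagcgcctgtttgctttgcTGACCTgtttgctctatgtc

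The upstream windows of *Klkb1* and *F11* each held 1 match, to TTGCNNAA, at -177 to -170 and at -17 to -10 from the start. *C8a* held TTCNNNGAA at -228 to -220 and GTTAAT at -107 to -102, and *C8b* held GTTAAT at -206 to -201 and AGGTCA at -20 to -15. RefSeq windows were used for 35 of the 45 genes (37 windows, since a gene can have several starts). GTTAAT was found in 11 of the 37 windows (29.7%), against 6.43% of the 32851 mouse promoter windows of the same length. TTGCNNAA was found in 10 (27.0%, against 9.56%), AGGTCA in 9 (24.3%, against 14.0%), TTCNNNGAA in 6 (16.2%, against 7.02%) and CAAAGTCCA in 0 (against 0.384%). The 3 fibrinogen genes were not alike in this respect, since *Fga* and *Fgb* each held TTCNNNGAA, TTGCNNAA and GTTAAT while *Fgg* held only AGGTCA. A match describes the letters of the window and was not tested for binding.

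*Med23* itself did not separate the groups. Its FPKM (fragments mapped to a gene, normalized to its length and to the size of the library) was 3.42, 2.97 and 4.14 in the med23f/f libraries and 3.40, 3.40 and 2.91 in the med23Δli libraries, which overlap (log2 fold change -0.11, SE 0.17, adjusted p = 0.686, limma with Benjamini-Hochberg adjustment). FPKM are summed over the gene and would still count transcript that lacks a deleted exon, and the other liver cells keep the gene, so the level is a weak check of the labels. Whether either accounts for the levels seen here was not tested. The groups are therefore named below by their labels. The summed FPKM ranged from 591800 to 651200 per library, and the depth of each library is not known from FPKM, which keep no read counts. Among markers of the cell types that a whole liver holds, all 6 markers of liver endothelium (*Pecam1*, *Stab2*, *Clec4g*, *Kdr*, *Lyve1* and *Oit3*) fell, with summed levels of 81.6 to 119 FPKM in med23f/f and 43.3 to 46.6 FPKM in med23Δli. Of these calls, that of *Lyve1* was lost without med23f/f replicate 2 or med23Δli replicate 1 or 3 (highest adjusted p 0.0971) and with no filter on low values, and that of *Pecam1* without med23Δli replicate 2 (0.0515) and with centring on hepatocyte markers (limma). Centring on the mean of the hepatocyte markers left *Stab2*, *Clec4g* and *Kdr* called. None of the 6 hepatocyte markers passed the limma test (median log2 fold change -0.45, summed 26050 to 35360 FPKM against 22100 to 28260 FPKM), and none of the 6 Kupffer cell markers or of the 5 cholangiocyte markers did, with 3, 1 and 0 lower at an unadjusted p under 0.05. Of the other lists, 1 of 5 neutrophil markers (*Mmp9*), 1 of 6 stellate cell markers (*Des*) and 1 of 2 platelet markers tested (*Itga2b*) fell, each kept in only 1 of the 6 fits without 1 library (*Des* without med23f/f replicate 3, the others without med23f/f replicate 1; highest adjusted p 0.109, 0.149 and 0.105) and lost with centring on hepatocyte markers or with no filter on low values. The 6 lymphocyte markers all had a mean below 0.5 FPKM. In a bulk sample, fewer cells of a type and less RNA per cell cannot be told apart.

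In the med23f/f libraries the most abundant were *Ahsg* (fetuin-A, an inhibitor of calcification) and the fibrinogen genes, followed by *C3* and *Vtn* (vitronectin), and the least abundant was *F8* (1.14 ± 0.135 FPKM, SD, n = 3). *Ahsg* was 8139, 4003 and 6245 FPKM in med23f/f and 4430, 4098 and 4047 FPKM in med23Δli, and *C3* was 1931, 1720 and 2204 FPKM against 2104, 2948 and 2642 FPKM. The groups overlapped for both genes, and neither passed the test (log2 fold change -0.49, adjusted p = 0.196, and 0.39, adjusted p = 0.156, limma), although *Ahsg* did without med23f/f replicate 2 (log2 fold change -0.77, adjusted p = 0.0342). As a share of all FPKM in a library, the 45 genes amounted to 4.45, 3.66 and 3.89% in med23f/f and 3.29, 3.85 and 4.04% in med23Δli. These shares overlap, with means of 4.00% and 3.73%. They became 3.95% and 4.29% when the 10 most abundant genes of each library were left out, which removed *Ahsg* from 2 of the control libraries and from no other. With *Ahsg* kept throughout and only the others of those 10 left out, they were 4.85% and 4.29%, and without *Ahsg* in any library 3.05% and 3.07%. Fibrinogen alone made up 33.6 to 43.4% of the total of the 45 genes.

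**Figure D1:**
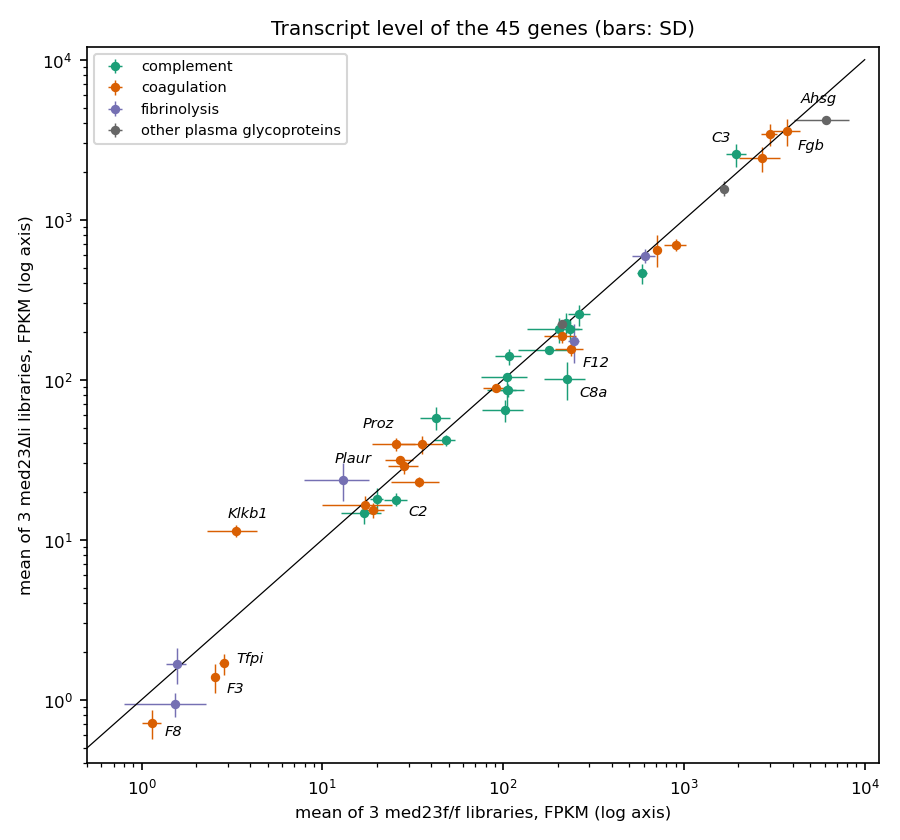
Mean FPKM of each of the 45 genes in the 3 med23f/f libraries (x axis, log scale) and the 3 med23Δli libraries (y axis, log scale), with bars for the SD and the diagonal marking equal levels. Most genes lie near the diagonal, *Klkb1* and *Plaur* stand above it, and *C8a*, *F3* and *Tfpi* stand below it.

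All 45 genes were abundant enough to be tested (a mean of at least 0.5 FPKM). At an adjusted p under 0.05, 1 gene rose (*Klkb1*), 5 fell (*C8a*, *F3*, *Tfpi*, *F12* and *C2*) and 39 did not pass (limma on log2(FPKM + 0.1), Benjamini-Hochberg over all 11956 genes tested). The 6 genes are 13.3% of the 45, whereas 21.1% of all genes tested passed. In the upward direction 2.22% of the 45 genes passed, against 11.6% of all genes, and in the downward direction 11.1%, against 9.48%, so the falls were about as frequent as in the transcriptome at large. By more than 2-fold as well, 2 of the 45 genes passed, against 7.9% of all genes: 1 up, against 4.45%, and 1 down, against 3.45%. Values of the 2 groups were fully apart for 13 of the 45 genes (28.9%), against 43.7% of all genes, with 3 higher in med23Δli (against 23.3%) and 10 lower (against 20.4%). The median log2 fold change of the 45 genes was -0.16, with 29 below 0 and 16 above 0, and that of all genes was 0.02. When each library was centred on the median of its 6 hepatocyte markers, the split of 1 up and 5 down became 1 up and 1 down (*Klkb1* and *C8a*), and the share called over all genes went from 21.1% to 11.1%. That centring left the median log2 fold change of all genes at 0.02, so it did not take out the lower level of most of these markers in med23Δli. Centring on the mean of their log2 values, chosen after seeing the data, shifted every log2 fold change up by 0.30. The split then became 6 up (*Klkb1*, *Plaur*, *Proz*, *C6*, *C3* and *Mbl1*) and 1 down (*C8a*), against 21.0% and 2.85% of all genes, and the median of the 45 genes turned to 0.14, against 0.32 for all genes. The direction of the small changes given below thus depends on the scaling, while the calls on *Klkb1* and *C8a* (adjusted p = 0.000309 and 0.0154, limma) did not.

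For the 39 genes that did not pass, the log2 fold changes ran from -0.65 to 0.89, and the 95% intervals of 31 of them lay within a 2-fold change in either direction. The median half-width of these intervals was 0.42, so smaller changes could not be resolved with 3 libraries a group. The counts depend on single libraries. The number of genes that fell was 2 without med23f/f replicate 1, 7 without med23f/f replicate 3, 1 without med23Δli replicate 1 or replicate 2, and 0 without med23Δli replicate 3. Over all genes the share that fell was 6.67, 11.9, 2.87, 3.55 and 3.21% in the same 5 fits, against 9.48% with all libraries. The share called in either direction was 15.9, 26.3, 6.19, 7.54 and 7.84%. The number of the 45 genes that rose was 2 without med23f/f replicate 2 or replicate 3, where 8.61% and 14.4% of all genes rose, against 11.6% with all libraries. The med23Δli replicate 1 library held the lowest value of its group for 30 of the 45 genes, and the median log2 fold change was -0.03 without it and -0.06 without med23f/f replicate 2.

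**Figure D2:**
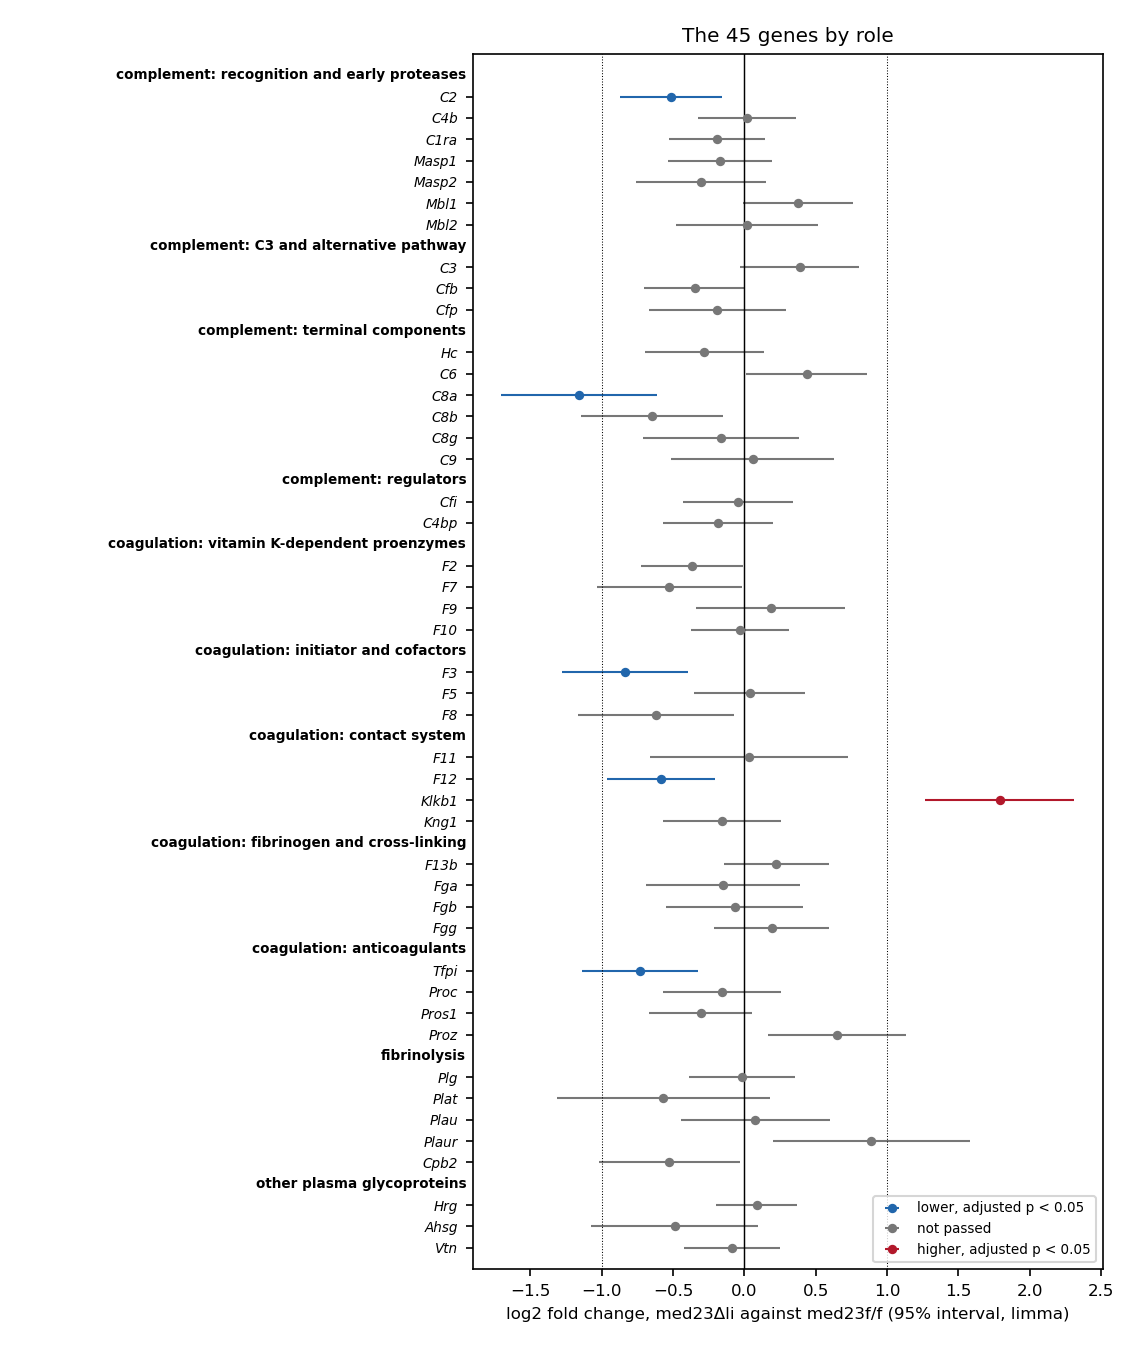
Log2 fold change of each gene, med23Δli against med23f/f, with its 95% interval from limma, grouped by the role of the protein. Red marks the 1 gene that rose, blue the 5 that fell and grey the 39 that did not pass at an adjusted p of 0.05, and dotted lines mark a 2-fold change.

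Of the contact system, the set of proteins that start clotting on a charged surface, prekallikrein rose and factor XII fell. *Klkb1* encodes plasma prekallikrein, which factor XIIa converts to kallikrein and which releases bradykinin from kininogen. It lies on the minus strand of chromosome 8 (45266689 to 45294859, GRCm38). Its FPKM was 4.30, 3.39 and 2.27 in the med23f/f libraries and 10.3, 11.8 and 12.1 in the med23Δli libraries. All 3 med23Δli values were more than 2-fold above the highest control. The fold change was 3.46 (log2 fold change 1.79, SE 0.23, 95% interval 1.27 to 2.31, adjusted p = 0.00362, limma), the largest among the 45 genes. The call was kept in each of the 10 alternative settings and without any 1 library, where the log2 fold change ranged from 1.55 to 1.99 and the adjusted p from 0.00232 to 0.0267 (limma). The annotated gene *Gm45753* overlaps *Klkb1* on the same strand and is not a row of the table, so fragments from it cannot be told apart from *Klkb1*.

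The gene next to it did not pass the test. *F11*, which encodes factor XI and is transcribed from the same strand, was 24.2, 17.5 and 9.80 FPKM in med23f/f and 14.8, 19.1 and 15.8 FPKM in med23Δli. The med23Δli values lie inside the spread of the controls (log2 fold change 0.03, 95% interval -0.66 to 0.73, adjusted p = 0.949, limma). Within each library, the ratio of *Klkb1* to *F11* was 0.178, 0.194 and 0.232 in med23f/f and 0.694, 0.619 and 0.765 in med23Δli. The groups are well apart, and the exact two-sided permutation test gave p = 0.1, the smallest p that 3 against 3 libraries allow. Of the other genes within 100 kb of *Klkb1*, *Cyp4v3* stood at 0.48 on the log2 scale (adjusted p = 0.101, and 0.0392 without med23f/f replicate 1) and *Fam149a* at -0.41 (adjusted p = 0.219), and neither passed the limma test with all libraries.

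*F12* encodes factor XII, the protease that starts contact activation. It was 201, 282 and 225 FPKM in med23f/f and 141, 174 and 153 FPKM in med23Δli. Every med23Δli value was below every control (log2 fold change -0.59, SE 0.16, adjusted p = 0.0416, limma). The call was lost without med23f/f replicate 2 (adjusted p = 0.0801) and without med23Δli replicate 1, 2 or 3 (adjusted p = 0.149, 0.0824 and 0.114, limma). It was also lost with no filter on low values (0.0649), with centring on hepatocyte markers (0.107) and without a variance trend (0.0552). *Kng1*, which encodes the kininogen that carries prekallikrein and factor XI, was 683, 728 and 731 FPKM against 524, 813 and 615 FPKM, and the groups overlapped (log2 fold change -0.16, adjusted p = 0.554, limma). *Kng2* is a near-identical copy of *Kng1*, and how reads were split between them is uncertain.

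**Figure D3:**
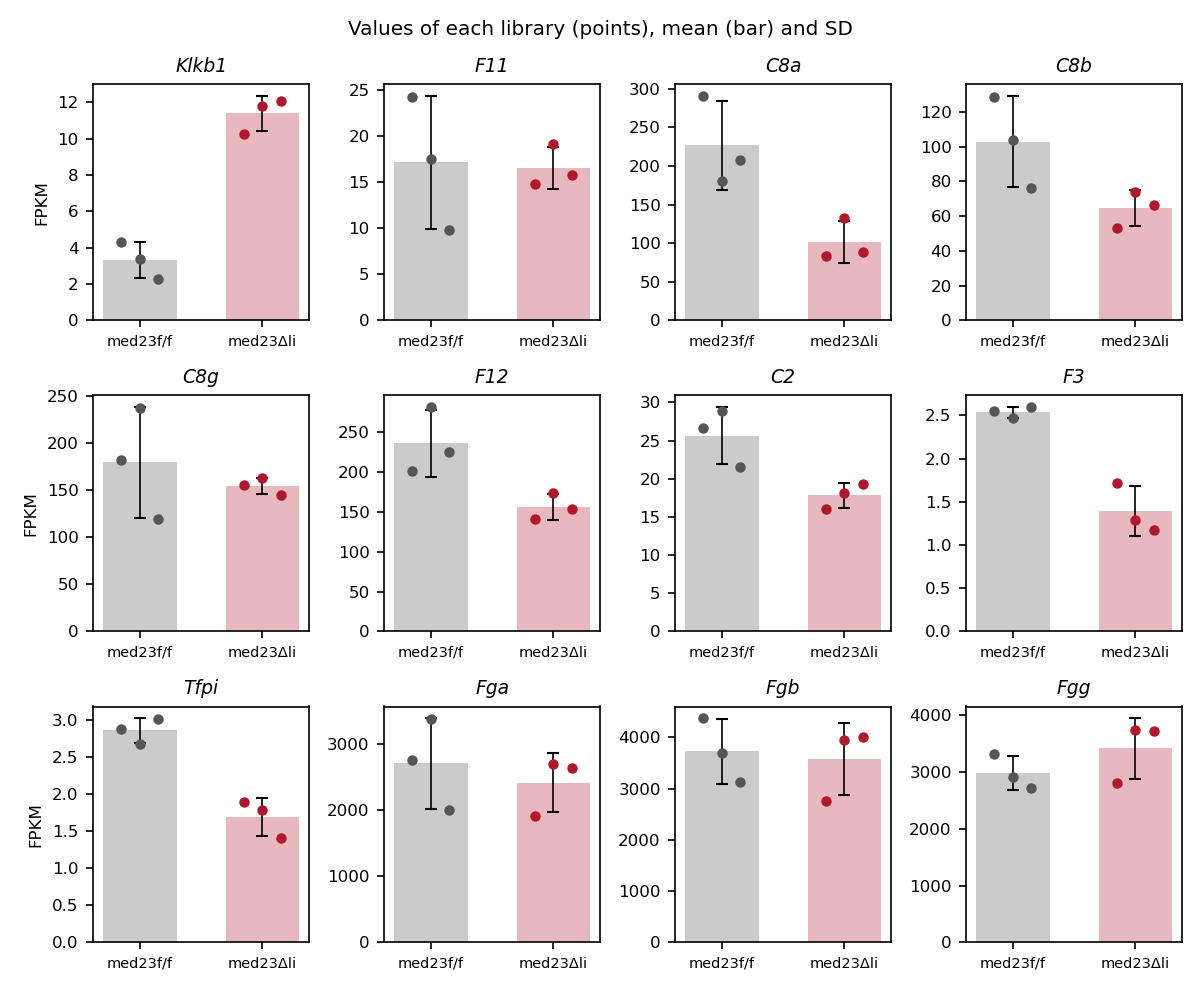
FPKM in each of the 6 libraries (points) with the group mean (bar) and SD, for 12 genes, each on its own axis from 0. The med23Δli points of *Klkb1* lie above all controls and those of *C8a*, *C8b*, *F12*, *C2*, *F3* and *Tfpi* below them, while the groups overlap for *F11*, *C8g* and the 3 fibrinogen genes.

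Of the 6 terminal components, which build the membrane attack complex, 1 fell (16.7%, against 9.48% of all genes tested) and 5 did not pass. *C8a* encodes the alpha chain of C8, which inserts into the membrane, and lies on the minus strand of chromosome 4 (104815679 to 104876398). It was 291, 181 and 208 FPKM in med23f/f and 83.0, 132 and 88.9 FPKM in med23Δli. The groups did not overlap, and the level fell to 0.447 of the control (log2 fold change -1.16, SE 0.24, 95% interval -1.71 to -0.61, adjusted p = 0.0155, limma), the only fall of more than 2-fold among the 45 genes. It was kept in all 10 alternative settings, and was lost without med23Δli replicate 1 (log2 fold change -1.03, adjusted p = 0.0645) or replicate 3 (-1.08, adjusted p = 0.0655, limma).

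*C8b* encodes the beta chain of C8 and ends 11.1 kb from the end of *C8a*, on the opposite strand. It was 129, 104 and 76.0 FPKM in med23f/f and 53.4, 74.0 and 66.5 FPKM in med23Δli. The groups were only just apart, and the gene did not pass (log2 fold change -0.65, 95% interval -1.15 to -0.15, adjusted p = 0.0658, limma). It passed under quantile normalization (adjusted p = 0.0304) and without med23f/f replicate 3 (adjusted p = 0.0175, limma). *C8g* encodes the gamma chain, a lipocalin bound to the alpha chain, and was 182, 237 and 119 FPKM in med23f/f against 155, 163 and 145 FPKM in med23Δli. The med23Δli values lie inside the range of the controls (log2 fold change -0.16, 95% interval -0.71 to 0.38, adjusted p = 0.645, limma). It overlaps *Fbxw5* on the opposite strand, and the library kit did not mark strand.

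A C8 molecule holds 1 of each chain, and the ratios of their transcripts were compared within libraries. The ratio of *C8a* to *C8b* was 2.26, 1.74 and 2.74 in med23f/f and 1.56, 1.79 and 1.34 in med23Δli, and that of *C8a* to *C8g* was 1.60, 0.762 and 1.75 against 0.535, 0.815 and 0.613. Both ratios overlapped between the groups (exact two-sided permutation p = 0.2 for each), so a difference in change between the 3 chains was not shown. The ratio of *C8a* to *C9*, the component that polymerises around C8, was 1.03, 0.998 and 1.39 in med23f/f and 0.503, 0.571 and 0.395 in med23Δli. Here the groups were apart (exact two-sided permutation p = 0.1, the smallest possible with 6 libraries). The remaining terminal components did not pass the limma test. On the log2 scale *Hc*, which encodes C5, stood at -0.28 (adjusted p = 0.287), *C6* at 0.44 (adjusted p = 0.126) and *C9* at 0.06 (adjusted p = 0.886).

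Among the 7 recognition molecules and early proteases of complement, 1 fell (14.3%, against 9.48% of all genes tested). *C2* encodes the protease of the classical and lectin C3 convertase and was 26.6, 28.9 and 21.5 FPKM in med23f/f and 16.0, 18.2 and 19.3 FPKM in med23Δli. Each med23Δli value was below each control (log2 fold change -0.52, SE 0.15, adjusted p = 0.0489, limma). This call sat at the threshold and was kept, of the 6 fits that left out 1 library, only in that without med23f/f replicate 3 (adjusted p = 0.0181). The adjusted p was 0.107 and 0.105 without med23f/f replicate 1 and 2, and 0.180, 0.131 and 0.0932 without med23Δli replicate 1, 2 and 3 (limma). The call was lost in other settings too, among them median centring (0.0509), no filter on low values (0.0679), centring on hepatocyte markers (0.169) and no variance trend (0.0660). *Cfb*, which encodes factor B and lies 85 bases from *C2*, was 611, 609 and 543 FPKM in med23f/f and 388, 488 and 515 FPKM in med23Δli. No med23Δli value reached a control value, and the gene did not pass (log2 fold change -0.35, adjusted p = 0.138, limma). An annotated transcript unit, *Gm20547*, spans both genes on the same strand and is not a row of the table, so its fragments cannot be told apart from theirs.

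The mannose-binding lectins, which recognise microbial sugars, were *Mbl1*, at 0.37 on the log2 scale (adjusted p = 0.143), and *Mbl2*, at 0.02 (adjusted p = 0.965). *Mbl1* was higher in every med23Δli library than in any control (88.1 to 121.9 FPKM in med23f/f and 122.4 to 155.6 FPKM in med23Δli). The lectin-associated proteases *Masp1* and *Masp2* had values of -0.17 and -0.31, *C1ra* (the C1r protease) of -0.19 and *C4b* of 0.02, and none passed the limma test (adjusted p from 0.290 to 0.945). The regulators *Cfi* (factor I, which cleaves C3b) and *C4bp* (its cofactor) had values of -0.05 and -0.18, and *Cfp* (properdin, made by leukocytes) of -0.19. In all, 2 of the 18 complement genes fell and 0 rose by limma (1 of those above 0, *C6*, was at an unadjusted p under 0.05), with a median log2 fold change of -0.18. The falls were 11.1% of these genes, against 9.48% of all genes tested, and the rises 0%, against 11.6%. *C4b* and *C1ra* have near-identical copies, so their counts are uncertain.

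Tissue factor and its inhibitor fell together at low levels. *F3* encodes tissue factor, the membrane receptor that starts clotting with factor VIIa, and was 2.55, 2.47 and 2.59 FPKM in med23f/f and 1.72, 1.29 and 1.17 FPKM in med23Δli. All med23Δli values lay below the controls (log2 fold change -0.84, SE 0.19, adjusted p = 0.0218, limma). *Tfpi*, whose product blocks the tissue factor and factor VIIa complex, was 2.88, 2.68 and 3.02 FPKM in med23f/f and 1.89, 1.78 and 1.40 FPKM in med23Δli, again with no overlap (log2 fold change -0.73, SE 0.18, adjusted p = 0.0252, limma). The ratio of *F3* to *Tfpi* within a library was 0.886, 0.920 and 0.859 in med23f/f and 0.911, 0.723 and 0.834 in med23Δli, and the groups overlapped. The call on *F3* was lost without med23f/f replicate 1 (adjusted p = 0.0538) or med23Δli replicate 2 or 3 (0.0827 and 0.0765). That on *Tfpi* was lost without med23f/f replicate 1 (adjusted p = 0.0596) or med23Δli replicate 1, 2 or 3 (0.0689, 0.0751 and 0.0827, limma), and both were lost, among other settings, when libraries were centred on the median of the hepatocyte markers (0.0926 and 0.123, with log2 fold changes of -0.85 and -0.74) or on their mean (0.158 and 0.224, with -0.54 and -0.44). *Tfpi* also missed the threshold with no filter on low values (0.0513).

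*F8*, which encodes the cofactor of factor IXa and is made by liver endothelium, was 1.12, 1.02 and 1.29 FPKM in med23f/f and 0.646, 0.617 and 0.878 FPKM in med23Δli. Here too the groups were apart, and the gene did not pass (log2 fold change -0.62, adjusted p = 0.0974, limma), although it did when the variance was modelled without a trend (adjusted p = 0.0469). The 7 genes listed here as made largely outside hepatocytes (*Cfp*, *F3*, *F8*, *Plat*, *Plau*, *Plaur* and *Tfpi*) had a median log2 fold change of -0.57, with 2 that fell and 0 that rose by limma (1, *Plaur*, was higher at an unadjusted p under 0.05). Which cells made these transcripts in these livers was not measured, and hepatocytes may be a source of some, *F3* among them. The other 38 had a median of -0.12, with 3 that fell and 1 that rose. The shares called were 28.6% and 10.5%, against 21.1% of all genes tested, and the difference between these sets was not tested. The 6 endothelial markers had a median of -1.04 over the same libraries, and their part in the values of *F3*, *Tfpi* and *F8* was not tested.

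None of the 4 vitamin K-dependent proenzymes, which carry the Gla residues that bind them to membranes, passed the limma test, and 2 (*F2* and *F7*) were at an unadjusted p under 0.05. *F2* (prothrombin) was 858, 1040 and 809 FPKM in med23f/f and 657, 770 and 665 FPKM in med23Δli, with no overlap (log2 fold change -0.37, adjusted p = 0.122, and 0.0213 under quantile normalization, limma). *F7* was 35.2, 43.9 and 23.5 FPKM against 21.5, 23.0 and 24.5 FPKM (log2 fold change -0.53, adjusted p = 0.123), and the groups overlapped through med23f/f replicate 3, without which it passed (adjusted p = 0.0125). *F9* and *F10* had log2 fold changes of 0.19 and -0.03 (adjusted p = 0.578 and 0.892, limma). *F5*, the cofactor of factor Xa, was at 0.04.

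Of the anticoagulants, *Proz* (protein Z, the cofactor of an inhibitor of factor Xa) stood higher in med23Δli and did not pass. It was 28.2, 30.8 and 18.0 FPKM in med23f/f and 36.2, 39.0 and 43.2 FPKM in med23Δli, with no overlap (log2 fold change 0.65, 95% interval 0.17 to 1.13, adjusted p = 0.0601, limma). Without med23f/f replicate 2 it passed (adjusted p = 0.0466). *Proz* lies in a row with *F7* and *F10* on chromosome 8, with gaps of 1.5 kb and 4.2 kb, and the log2 fold changes along the row were -0.53, -0.03 and 0.65. *Proc* (protein C) and *Pros1* (protein S) had values of -0.16 and -0.31 (adjusted p = 0.550 and 0.191, limma).

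The transcripts of fibrinogen, the clottable protein built of 3 chains, did not pass the limma test and were not at an unadjusted p under 0.05 either. *Fga* was 2763, 3376 and 2003 FPKM in med23f/f and 1909, 2707 and 2639 FPKM in med23Δli. *Fgb* was 4385, 3693 and 3122 FPKM against 2764, 3951 and 4015 FPKM, and *Fgg* was 3309, 2902 and 2719 FPKM against 2796, 3737 and 3715 FPKM. All 3 overlapped between the groups, and med23Δli replicate 1 was the lowest of its group for each. The log2 fold changes were -0.15 (95% interval -0.69 to 0.39), -0.07 (-0.55 to 0.41) and 0.19 (-0.21 to 0.60), with adjusted p of 0.667, 0.838 and 0.457 (limma). *F13b*, the carrier subunit of the fibrin cross-linking enzyme, was at 0.22 (adjusted p = 0.337).

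The ratio of *Fgg* to *Fgb* within a library was 0.755, 0.786 and 0.871 in med23f/f and 1.01, 0.946 and 0.925 in med23Δli. Every med23Δli ratio was above every control ratio. The ratio of *Fga* to *Fgg* was 0.835, 1.16 and 0.737 in med23f/f and 0.683, 0.725 and 0.710 in med23Δli, and did not overlap either, while that of *Fga* to *Fgb* did (0.630, 0.914 and 0.642 against 0.691, 0.685 and 0.657). The exact two-sided permutation p was 0.1 for the ratios that did not overlap, the smallest these 6 libraries allow, and 1.0 for *Fga* to *Fgb*.

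**Figure D4:**
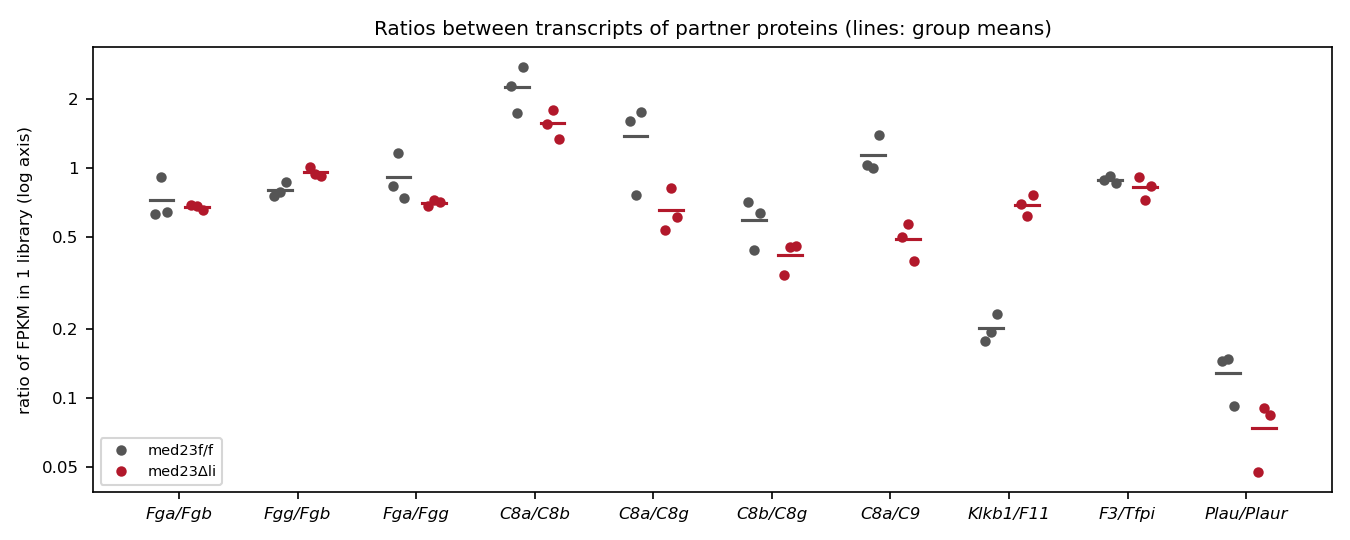
Ratio of the FPKM of 2 transcripts within each library (points, log axis) and the mean of each group (lines), for the chains of fibrinogen, the chains of C8, and pairs of neighbours or partners. The groups are apart for *Klkb1* to *F11*, *Fgg* to *Fgb*, *Fga* to *Fgg*, *C8a* to *C9* and *Plau* to *Plaur*, and overlap for the other 5 ratios.

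None of the 5 fibrinolysis genes passed the limma test, and 2 (*Plaur* and *Cpb2*) were at an unadjusted p under 0.05. *Plaur*, which encodes the urokinase receptor, was at 11.01, 9.18 and 18.9 FPKM in med23f/f and 28.6, 16.7 and 25.8 FPKM in med23Δli. The groups overlapped through med23f/f replicate 3 and med23Δli replicate 2 (log2 fold change 0.89, 95% interval 0.20 to 1.58, adjusted p = 0.0679, limma), and without med23f/f replicate 3 the gene passed (log2 fold change 1.19, adjusted p = 0.0152). Its ligand urokinase, *Plau*, was 1.60, 1.36 and 1.75 FPKM against 1.37, 1.51 and 2.18 FPKM, and the groups overlapped (log2 fold change 0.08, adjusted p = 0.830). The ratio of *Plau* to *Plaur* was 0.145, 0.148 and 0.0924 in med23f/f and 0.0477, 0.0904 and 0.0843 in med23Δli, just apart (exact two-sided permutation p = 0.1). *Plg* (plasminogen) and *Plat* (tissue plasminogen activator) had log2 fold changes of -0.02 and -0.57 (adjusted p = 0.946 and 0.235). *Cpb2*, which encodes an enzyme that protects fibrin from plasmin, was 228, 249 and 261 FPKM in med23f/f and 121, 190 and 215 FPKM in med23Δli, with no overlap (log2 fold change -0.53, adjusted p = 0.115, limma). Of the other plasma glycoproteins, *Hrg* and *Vtn* were at 0.09 and -0.09.

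The other genes of the cascades were examined as 2 lists. Of 29 further complement genes in the table, 24 were tested, 2 rose and 2 fell by limma (16.7%, against 21.1% of all genes), with a median log2 fold change of -0.22. *Cr1l* encodes a membrane regulator that protects cells from complement, and was 31.7, 24.99 and 23.1 FPKM in med23f/f and 47.3, 45.9 and 40.7 FPKM in med23Δli (log2 fold change 0.75, SE 0.15, adjusted p = 0.0157, limma). *Cd59a*, whose product blocks the membrane attack complex, was 22.8, 21.6 and 24.3 FPKM in med23f/f and 33.4, 41.4 and 33.3 FPKM in med23Δli (log2 fold change 0.64, SE 0.14, adjusted p = 0.0179, limma). Every med23Δli value of both genes lay above the controls, and both calls were lost without med23Δli replicate 1 or replicate 2 (highest adjusted p 0.0711 and 0.0773, limma). Of the 10 alternative settings, *Cr1l* was called in each, and *Cd59a* was lost with centring on the median of the hepatocyte markers and in 1 other. *Colec11*, a lectin of the same pathway as *Mbl1*, and *C1qa*, a chain of C1q made by macrophages, fell (log2 fold change -0.74, adjusted p = 0.00916, and -0.68, adjusted p = 0.0425). *Colec11* was lost without med23Δli replicate 1 (adjusted p = 0.0511), and *C1qa* without any library but med23f/f replicate 1 (highest adjusted p 0.141). Both were also lost with centring on the hepatocyte markers, by median or mean, and *C1qa* with no filter on low values and without a variance trend.

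Of 37 further genes of coagulation and fibrinolysis, 29 were tested, 3 rose and 3 fell by limma (20.7%, against 21.1% of all genes), with a median log2 fold change of -0.01. *Procr*, which encodes the endothelial protein C receptor, was 7.16, 2.43 and 4.05 FPKM in med23f/f and 18.4, 21.6 and 17.1 FPKM in med23Δli (log2 fold change 2.17, SE 0.34, adjusted p = 0.00704, limma). All med23Δli values lay more than 2-fold above the highest control, and the call was kept in each of the 10 settings and without any 1 library. *Serpine2*, an inhibitor of thrombin and urokinase, was 5.96, 1.87 and 2.23 FPKM in med23f/f and 22.7, 9.73 and 22.1 FPKM in med23Δli (log2 fold change 2.49, SE 0.47, adjusted p = 0.0120, limma). Its groups did not overlap, and the call was lost without med23Δli replicate 1 or 3 (highest adjusted p 0.0582). *Anxa2*, a receptor for plasminogen on cell surfaces, rose by 0.58 (adjusted p = 0.0404) and was called, of the 6 fits without 1 library, only in that without med23f/f replicate 1 (highest adjusted p 0.149, limma). It was lost in 5 of the 10 alternative settings.

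Those that fell were *Serpina1e* and *Serpina1a*, alpha-1-antitrypsin genes, and *Vwf*, the carrier of factor VIII in blood. *Serpina1e* was 4286, 4155 and 3668 FPKM in med23f/f and 1137, 1910 and 2169 FPKM in med23Δli, with no overlap (log2 fold change -1.26, SE 0.25, adjusted p = 0.0132, limma). *Vwf* was 0.916, 1.14 and 1.49 FPKM against 0.539, 0.505 and 0.508 FPKM, also with no overlap (log2 fold change -1.03, adjusted p = 0.0279). *Serpina1a* fell by 0.70 on the log2 scale (adjusted p = 0.0305, limma). The *Serpina1* genes are near-identical copies, and how their reads were divided is uncertain. *Vwf* and *Serpina1a* lost their calls without some libraries, *Vwf* without med23f/f replicate 2 or any med23Δli library (highest adjusted p 0.0858) and *Serpina1a* without any library but med23f/f replicate 3 (0.113). Both were also lost in other settings, *Vwf* with centring on the hepatocyte markers by median or mean and *Serpina1a* with no filter on low values or centring by the mean. *Thbd*, thrombomodulin, the endothelial partner of the protein C receptor, did not pass (log2 fold change -0.60, adjusted p = 0.0811, limma, and 0.0384 without med23f/f replicate 1), and *Serpinc1*, antithrombin, was at -0.01 (adjusted p = 0.961).

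**Figure D5:**
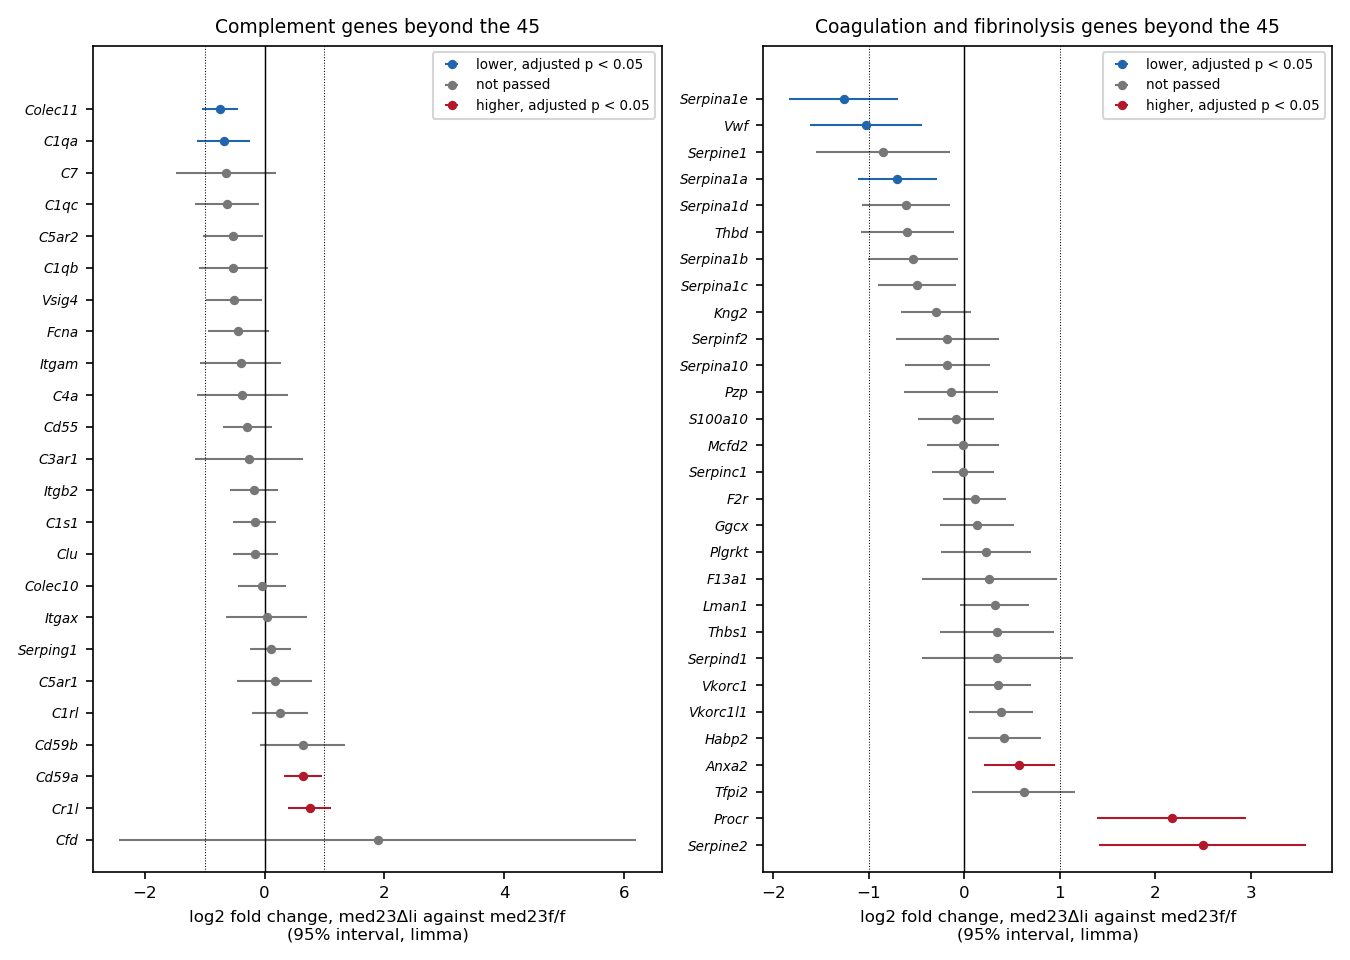
Log2 fold change with its 95% interval (limma) of the 24 further complement genes and the 29 further coagulation and fibrinolysis genes tested, ordered by size. Red marks the 2 complement and 3 coagulation genes that rose, blue the 2 and the 3 that fell, and *Cfd*, with the widest interval, was above 1 FPKM in a single med23Δli library.

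The cascade genes were set beside other proteins that hepatocytes secrete. Of 19 acute phase genes, 1 rose and 1 fell by limma (10.5%, against 21.1% of all genes), with a median log2 fold change of -0.37. In this list 14 genes were below 0, and at an unadjusted p under 0.05 6 were lower and 1 higher. The share of all genes at that unadjusted threshold was not computed, and is at least the 21.1% that passed after adjustment. The pair were serum amyloid genes: *Saa4* was 27.0, 40.4 and 26.9 FPKM in med23f/f and 77.1, 116 and 166 FPKM in med23Δli (log2 fold change 1.88, adjusted p = 0.00648), and *Saa3* was 334, 687 and 354 FPKM against 61.2, 121 and 129 FPKM (log2 fold change -2.14, adjusted p = 0.00847, limma). Neither overlapped between the groups. Of 21 other secreted proteins, 1 rose (*Rbp4*, the retinol carrier, 0.84, adjusted p = 0.0171) and 2 fell (*Apoc3*, -0.83, adjusted p = 0.0309, and *Ambp*, -0.75, adjusted p = 0.0167, limma), which is 14.3% of the list, with a median of -0.16, the value also found for the 45 genes. *Rbp4* and *Ambp* lost their calls without med23f/f replicate 1 or med23Δli replicate 1 or 2 (highest adjusted p 0.0720 and 0.0713), and *Apoc3* without any library but med23f/f replicate 3 (0.106), and all 3 with no filter on low values. With centring on the mean of the hepatocyte markers, *Ambp* and *Apoc3* also lost their calls (adjusted p = 0.130 and 0.0602), while *Rbp4* kept its call (0.0034, limma). No test of the difference between these lists was made.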

How the data were processed

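After adapter trimming, the authors mapped the read pairs with TopHat (UCSC mm10) and computed FPKM with Cuffdiff. Tool versions and the annotation are not given in the sources used here. The deposited FPKM are normalized to transcript length and library size and keep no counts, so the depth of each library is unknown. Columns with the authors' group values, fold changes and p-values were not used.

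FPKM of all genes were tested in R 4.3.3 with limma 3.58.1 on log2(FPKM + 0.1), for the 11956 genes averaging 0.5 FPKM or more over 6 libraries, with empirical Bayes moderation with a trend and Benjamini-Hochberg adjustment. Fold changes are on this scale, which understates those of low genes. Counts at an unadjusted p under 0.05 have no background, since the share of all genes at that threshold was not computed. Ratios were compared by exact two-sided permutation. The procedure was tested on simulated data, with changes larger than any among the 45 genes. It recovered 172 of 191 changed genes with 7 false calls, which does not bear on smaller changes. Members and lists were chosen with earlier results of these data known. Genes named with values in every library were those past an adjusted p of 0.05, fibrinogen and C8 subunits and *Med23*. From other lists, up to 3 rises and 3 falls past the threshold were named. Others, and ratios outside fibrinogen and C8, were chosen after their values were seen. Positions come from GENCODE M21 and promoters from RefSeq, searched over 250 upstream bases only. A promoter for *Proc* was not used here, and a few further complement genes are not reported here. Alternatives were other pseudocounts, filters, scalings, limma options, a replicate block and leaving out each library.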

Additional observations from a re-analysis of the deposited data

How the results depend on the processing

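The rise of *Klkb1* was kept in every alternative tried. The count of genes among the 45 that fell, 5, became 2 with no filter on low values, 1 with centring on hepatocyte markers, 2 with the replicate block, 1 when a change of more than 2-fold was also asked for and 0 at an adjusted p under 0.01 (limma, with 10 that fell at an unadjusted p under 0.05), and ranged from 0 to 7 when 1 library was left out. The count that rose, 1, became 2 with the replicate block (where 6.77% of all genes rose, against 11.6%) and ranged from 1 to 2. Of the further complement genes, those that fell (2) were 1 with no filter, 0 with centring on hepatocyte markers, 1 without a trend and 1 with the replicate block, and ranged from 0 to 6, and those that rose (2) were 1 with centring on hepatocyte markers and 1 with the replicate block, and ranged from 0 to 2. Of the further coagulation genes, those that fell (3) were 5 under quantile normalization, and both directions ranged from 1 to 6. Without the 10 most abundant genes the share of the 45 genes in med23Δli was 4.29% in place of 3.73%. In 2 alternatives chosen after seeing the data, the shares in med23f/f and med23Δli were 4.85% and 4.29% without the others of those 10 genes, and 3.05% and 3.07% without *Ahsg*. Centring on the mean rather than the median of the hepatocyte markers, also chosen after seeing the data, called 6 of the 45 genes up and 1 down, 0 of the further complement genes down and 8 up and 1 down of the further coagulation genes, and turned *Hc* (0.0136), *C8g* (0.134), *C1ra* (0.106), *Cfi* (0.249), *Cfp* (0.107), *C4bp* (0.113), *Masp1* (0.125), *F10* (0.263), *Fga* (0.145), *Fgb* (0.228), *Plg* (0.277), *Proc* (0.139), *Kng1* (0.140), *Vtn* (0.211) and *Med23* (0.191) above 0. Over all genes, 1905 of 17752 were called with no filter (10.7%), against 2517 of 11956 in the main fit (21.1%). Centring on hepatocyte markers called 1327 (11.1%), the replicate block 1423 (11.9%) and the fits without 1 library 740 to 3143. The shares of all genes that fell were 4.83% with no filter, 4.79% with that centring and 5.14% with the block, against 9.48%. Past 2-fold the share that fell was 3.45%, and the share at an adjusted p under 0.01 is not given here. The cause of these differences was not tested. The replicate numbers of the 2 groups did not pair the samples (correlations of same-numbered deviations -0.02, -0.05 and -0.12 over 11956 genes), and the replicate block called *Klkb1* and *Plaur* up and *C8a* and *F12* down, while *C2*, *F3* and *Tfpi* were not called (adjusted p = 0.102, 0.0601 and 0.0746, limma), nor were *Cd59a*, *C1qa*, *Vwf* and *Anxa2* (0.0535, 0.0510, 0.0694 and 0.0544). It also called the acute phase genes *Saa1* (log2 fold change -1.45), *Saa2* (-1.56) and *Orm1* (-0.83) lower (adjusted p = 0.0301, 0.0373 and 0.0383, against 0.0773, 0.0874 and 0.0593 without it, limma). Single genes near 0 changed sign without passing. Median centring gave *C4b* -0.0115 and *Mbl2* -0.0131, and quantile normalization gave *C4b* -0.0540, *C9* -0.0258, *Mbl2* -0.112, *F5* -0.0182, *F11* -0.0015 and *Fgb* 0.114. Leaving out 1 library turned *C4b* (-0.0989 to 0.122), *C8g* (-0.429 to 0.0665), *C9* (-0.137 to 0.315), *Cfi* (-0.161 to 0.0555), *Mbl2* (-0.232 to 0.191), *F5* (-0.0845 to 0.184), *F9* (-0.0176 to 0.420), *F10* (-0.164 to 0.0355), *F11* (-0.321 to 0.327), *Fga* (-0.354 to 0.0223), *Fgb* (-0.191 to 0.107), *Plg* (-0.147 to 0.0556), *Plau* (-0.112 to 0.205), *Vtn* (-0.155 to 0.0017) and *Med23* (-0.216 to 0.0169). With 3 libraries a group and no read counts, neither counting error nor small changes could be resolved.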

Other observations

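*Cfd* encodes adipsin (factor D), the protease that cleaves factor B and is made mainly by fat cells. Its FPKM was 23.8 in med23Δli replicate 2, against 0 and 0.0501 in the other med23Δli libraries and 0, 0.244 and 0.106 in med23f/f. The fat cell gene *Adipoq* (adiponectin) was 5.65 FPKM in the same library, 0.0907 in med23Δli replicate 3 and listed at 0 in the other 4. *Ucp1*, a marker of brown fat, was 2.29 FPKM there and listed at 0 in the other 5. These 3 genes were picked after their values were seen, and how they bear on the 45 genes was not tested. That library held the highest value of its group for 27 of the 45 genes.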
